A study of Mus musculus with 3 samples.

Results

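The kidneys of fructose-fed db/db mice were compared with those of lean db/m mice, cell class by cell class, by single-cell RNA sequencing of digested whole kidney. One library came from male db/m mice, 28 weeks old, whose control diet held no fructose. The second came from male db/db mice of that age whose diet held 60% fructose for 20 weeks, starting at 8 weeks. The members were all barcodes of these libraries with at least 200 genes and at most 50% of their unique molecular identifiers (UMIs, the counted transcript molecules) from mitochondrial genes. These were 30577 of 51795 such cells in the series, 11256 from db/m and 19321 from fructose-fed db/db. The other 21218 came from a db/db library on the control diet, also male and 28 weeks old, whose levels are given beside some genes with no comparison of their own. Each group was 1 library, and the number of mice in it and the hour at which the kidneys were taken are not given in the sources used here. The groups differed in genotype and in diet together, so the share of a difference that belongs to either cannot be told apart, and no test between the groups was possible. Intervals below are exact 95% intervals that cover counting error only.

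The db allele is a loss-of-function change in the leptin receptor gene Lepr. Homozygous db/db mice overeat and become obese and diabetic, and db/m mice, which carry 1 copy, stay lean. Dietary fructose enters proximal tubule cells through the transporters Slc2a5 and Slc2a2 and through sodium-coupled carriers and is phosphorylated by ketohexokinase (Khk), in a route that bypasses the main control step of glycolysis. The proximal tubule also makes glucose, reabsorbs filtered glucose and, in male mice, expresses a group of androgen-dependent genes. Kidney tubules have a circadian clock, in which Arntl and Clock drive the genes of their own repressors.

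Cells were grouped into classes by clustering and by marker genes. Proximal tubule cells numbered 6766 in db/m and 10325 in fructose-fed db/db, which was 60.1% (59.2 to 61.0) and 53.4% (52.7 to 54.1) of the cells. Thick ascending limb cells numbered 1365 and 2760, distal convoluted tubule cells 743 and 1525, connecting tubule and principal cells 813 and 1021, intercalated cells 216 and 536, thin limb cells 174 and 203, endothelial cells 562 and 1253, and pericyte, mesangial and smooth muscle cells 134 and 597. Every marker of these classes had at least 1 count over its class in both libraries, except that 13 of 14 thin limb markers did in db/m. RNA from other classes can meet so low a bar, so this is no check of the class names. Different clusters held most proximal tubule cells in the 2 libraries, clusters 6, 7 and 10 in db/m and clusters 0, 1 and 2 in fructose-fed db/db. The share of a class is therefore a description of these libraries only.

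The libraries held 31660184 UMIs over 13524 barcodes in db/m and 42028885 UMIs over 20383 barcodes in fructose-fed db/db, and the kept cells had medians of 1674 and 1565 UMIs. The median mitochondrial share was 15.5% in db/m and 10.9% in fructose-fed db/db, and 379 barcodes occurred in both. Counts were summed over the cells of a class in each library and expressed as CPM, which scales that sum to the same total in each library. In 7 of the 8 classes the median measured gene was higher in fructose-fed db/db, by a log2 ratio of 0.27 in proximal tubule, 0.29 in thick ascending limb, 0.23 in distal convoluted tubule, 0.13 in connecting tubule and principal, 0.28 in intercalated, 0.11 in endothelial and 0.10 in pericyte, mesangial and smooth muscle cells. In thin limb cells it was -0.03. Counts under median-of-ratios size factors, which remove this shift, are given below beside the CPM counts of most lists. RNA of other classes was present in every class. In proximal tubule cells, 10 markers of other classes stood at 26.5% of their whole-library level in db/m and 28.9% in fructose-fed db/db. For every other class the measure was 10 proximal tubule markers only, and RNA from the remaining classes was not measured there. These markers stood in distal convoluted tubule cells at 47.4% and 68.3%.

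Male-biased genes of the proximal tubule were low in fructose-fed db/db. Kap, the kidney androgen-regulated protein gene (chr6:133849851-133853762, mm10, minus strand), stood at 5376 CPM in db/m and 322 CPM in fructose-fed db/db (log2 ratio -4.06, 95% interval -4.10 to -4.02). The organic anion transporter gene Slco1a1 (chr6:141907282-141946962) stood at 225 CPM in db/m and 9.45 CPM in fructose-fed db/db (log2 ratio -4.58, 95% interval -4.82 to -4.35), and the medium-chain acyl-CoA synthetase gene Acsm3 at 128 and 3.69 CPM (log2 ratio -5.12, 95% interval -5.51 to -4.75). Of 14 measured members of the list of male-biased genes, 11 were lower by at least 1.5-fold and 0 were higher, with a median log2 ratio of -2.63. For comparison, 20.6% of the 8998 measured genes in this class stood 1.5-fold or more higher in fructose-fed db/db and 6.28% that much lower. With size factors those shares were 7.43% and 14.4%, and 11 of the 14 male-biased genes were lower. A gene counted as measured where its higher level reached 10 CPM and its counts over both libraries reached 20.

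Other members of the group were lower too. The omega-hydroxylase gene Cyp4a12a stood at 95.2 against 4.10 CPM (db/m first), Ldc1, a leucine decarboxylase gene, at 69.0 against 8.20 CPM, the dipeptidase gene Cndp2 at 524 against 66.0 CPM, the amino acid transporter gene Slc7a13 at 222 against 45.9 CPM, and Hsd11b1, whose enzyme regenerates active glucocorticoid, at 24.4 against 0.654 CPM. The members that did not pass 1.5-fold were Cyp2j13 at 249 against 239 CPM, Slc22a30 at 290 against 238 CPM and Cyp2d9 at 92.6 against 118 CPM. In the db/db library on the control diet the same genes read 98.7 CPM for Kap, 0.953 CPM for Slco1a1, 6.87 CPM for Acsm3 and 34.9 CPM for Cyp2j13. Of the 5 measured female-biased genes, the prolactin receptor gene Prlr (1.35 against 38.6 CPM), Cyp4a14 (2.39 against 54.7 CPM) and Slc22a29 were higher, and Tmigd1 (52.4 against 7.25 CPM) and Cyp2a4 were lower.

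Kap also shows how far proximal RNA reached other cells. With every cell thinned to 500 UMIs, Kap was detected in 86.5% of db/m and 14.2% of fructose-fed db/db cells, and in 75.5% and 11.6% of lymphocytes, which should lack it. Unthinned, the shares were 99.2% and 34.8% in proximal tubule cells and 98.0% and 25.9% in lymphocytes, at median depths of 1524 and 1510 UMIs in proximal tubule cells and 1680.5 and 1461.5 UMIs in lymphocytes. The log2 ratio of Kap was between -4.22 and -2.81 in all 8 classes, and that of Slco1a1 between -7.15 and -3.51. The -2.81 was that of thin limb cells, where 225 of the 309 Kap counts in fructose-fed db/db were in 1 cell, and it was -4.31 without the cell with the most counts in each library. Both genes were highest in proximal tubule cells, and their ratios in the other classes are not read as levels of those classes. Across the 8894 genes measured in 5 classes or more, 20 were at least 2-fold higher and 15 at least 2-fold lower in every class where they were measured. The most extreme median ratios included those of Slco1a1, Acsm3, Azgp1, Kap, Cyp4a12a, Kynu and Cyp24a1, each of which was highest in proximal tubule cells. Within single classes the shares of measured genes higher and lower by 2-fold were 4.89% and 1.78% in proximal tubule, 4.84% and 0.762% in thick ascending limb, 8.99% and 1.66% in distal convoluted tubule and 3.34% and 1.07% in connecting tubule and principal cells. They were 15.8% and 4.6% in intercalated, 3.39% and 1.43% in endothelial, 11% and 4.31% in pericyte, mesangial and smooth muscle and 2.72% and 2.5% in thin limb cells.

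**Figure D1:**
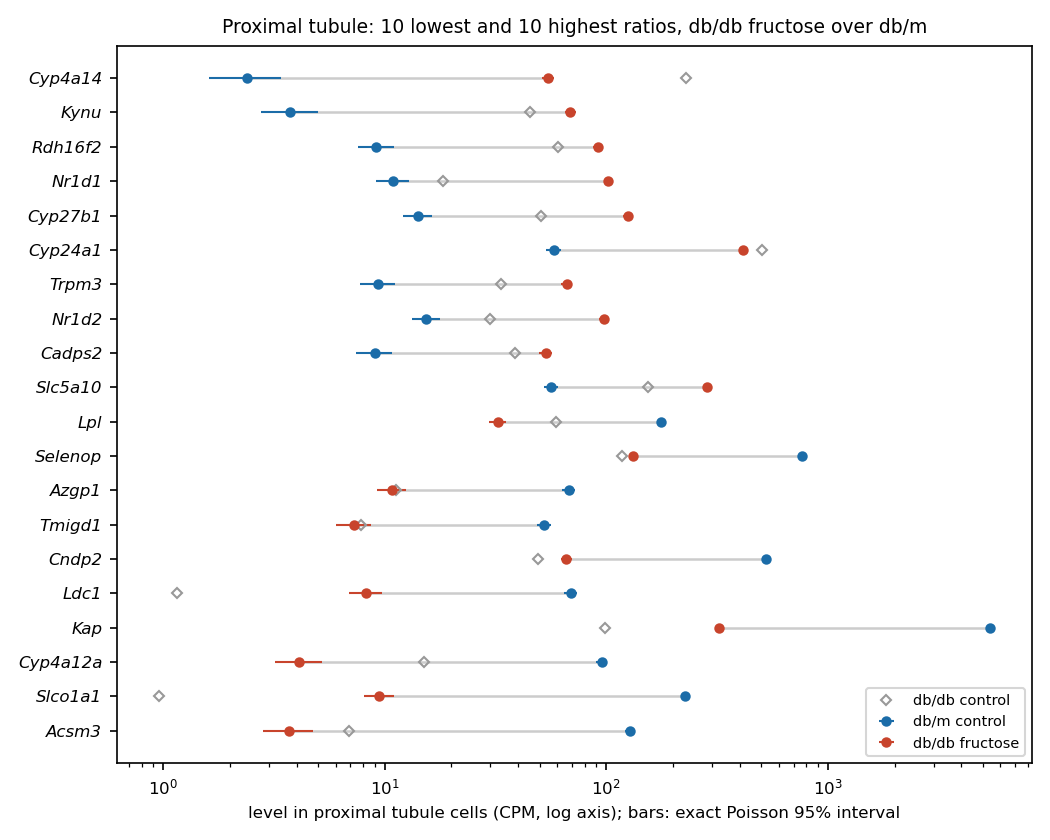
Levels in proximal tubule cells, in CPM on a log axis, of the 10 genes with the highest and the 10 with the lowest ratio chosen by the naming rule. Filled points are db/m and fructose-fed db/db with exact Poisson 95% intervals, and open diamonds are db/db on the control diet. Kap reads 5376 CPM in db/m and 322 CPM in fructose-fed db/db, and Cyp4a14 reads 2.39 and 54.7 CPM.

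The 10 highest ratios by the naming rule in proximal tubule cells were those of Cyp4a14, Kynu, Rdh16f2, Nr1d1, Cyp27b1, Cyp24a1, Trpm3, Nr1d2, Cadps2 and Slc5a10. Cyp4a14, a fatty acid omega-hydroxylase gene (chr4:115486200-115496142), stood at 2.39 CPM in db/m and 54.7 CPM in fructose-fed db/db (log2 ratio 4.52, 95% interval 3.99 to 5.09), and at 228 CPM in db/db on the control diet. The kynureninase gene Kynu stood at 3.75 against 68.7 CPM and the retinol dehydrogenase family gene Rdh16f2 at 9.16 against 91.9 CPM. Genes for both the activating and the inactivating enzyme of vitamin D were higher. Cyp27b1, which encodes the 1-alpha-hydroxylase (chr10:127048250-127053006), stood at 14.1 CPM in db/m and 125 CPM in fructose-fed db/db (log2 ratio 3.14, 95% interval 2.92 to 3.37). Cyp24a1, which encodes the 24-hydroxylase (chr2:170482708-170497145), stood at 57.8 CPM in db/m and 415 CPM in fructose-fed db/db (log2 ratio 2.84, 95% interval 2.73 to 2.96). The cation channel gene Trpm3 (9.32 against 66.3 CPM) and the vesicle priming gene Cadps2 (9.01 against 53.3 CPM) were also higher. At the low end, after the male-biased genes, stood Azgp1 (67.7 against 10.8 CPM), the plasma selenium carrier gene Selenop (761 against 133 CPM) and the lipoprotein lipase gene Lpl (176 against 32.3 CPM).

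The fructose entry genes Slc2a5, Slc5a10 and Slc2a2 were higher, and Khk, of the first step of breakdown, was near the class median. The fructose transporter gene Slc2a5 (chr4:150119283-150144169) stood at 14.3 CPM in db/m and 55.9 CPM in fructose-fed db/db (log2 ratio 1.96, 95% interval 1.73 to 2.20), with 48.2 CPM in db/db on the control diet. The sodium-coupled mannose and fructose carrier gene Slc5a10 stood at 56.3 against 284 CPM (log2 ratio 2.33, 95% interval 2.22 to 2.45), and the basolateral glucose and fructose transporter gene Slc2a2 at 116 against 206 CPM (log2 ratio 0.83, 95% interval 0.74 to 0.92). Khk stood at 315 against 375 CPM (log2 ratio 0.25, 95% interval 0.19 to 0.31), against a class median of 0.27. Of the 12 measured members of the fructose list, 5 were higher and 2 lower, with a median of 0.34. With size factors, 3 were higher and 2 lower. Slc2a2 did not pass 1.5-fold with size factors, which shift the log2 ratios of this class by 0.29. Of all measured genes in these cells 20.6% were higher and 6.28% lower. The lower count with size factors was near the size-factor share of all genes given above. The higher levels of Slc2a5 and Slc5a10 were not particular to proximal tubule cells. Both were at least 2-fold higher in every class where they were measured (7 and 8 classes), and both were highest in thin limb cells.

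Several genes of glucose production and reabsorption were higher. Pck1, the first committed enzyme of glucose synthesis, stood at 3606 CPM in db/m and 6796 CPM in fructose-fed db/db (log2 ratio 0.91, 95% interval 0.90 to 0.93). The glutamate dehydrogenase gene Glud1 stood at 544 against 1112 CPM (log2 ratio 1.03, 95% interval 0.99 to 1.07), and the glucose-6-phosphatase gene G6pc at 486 against 709 CPM (log2 ratio 0.54, 95% interval 0.50 to 0.59). The glutamine transporter gene Slc38a3 stood at 3.51 against 33.3 CPM. Of 16 measured gluconeogenesis genes 6 were higher and 1 was lower (median 0.43), or 5 and 2 with size factors. The sodium-glucose cotransporter genes Slc5a2 (746 against 1381 CPM) and Slc5a1 (20.0 against 44.4 CPM) were among 7 of 15 measured glucose and proximal sodium transport genes that were higher, with 0 lower (median 0.58). With size factors 3 of the 15 were higher and 5 were lower. Beside both lists, 20.6% of all measured genes in these cells were higher and 6.28% lower.

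Of 29 measured genes of fatty acid oxidation and PPAR targets, 6 were higher and 5 lower, with a median of 0.06. The share higher was near the 20.6% of all measured genes in these cells, and the lower share of all genes was 6.28%. With size factors 3 were higher and 10 lower, beside 7.43% and 14.4% of all genes. The fatty acid translocase gene Cd36 stood at 111 against 21.4 CPM (log2 ratio -2.38, 95% interval -2.55 to -2.21) and Ehhadh, a peroxisomal beta-oxidation gene, at 131 against 33.2 CPM (log2 ratio -1.98, 95% interval -2.12 to -1.84). Ppara, the nuclear receptor that controls fatty acid oxidation genes, stood at 116 against 281 CPM (log2 ratio 1.27, 95% interval 1.19 to 1.36), and malic enzyme 1 (Me1) at 194 against 65.6 CPM. In the purine and urate list 1 of 13 was higher and 3 lower, or 1 and 7 with size factors. The urate transporter gene Slc22a12 read 517 against 223 CPM, and Xdh, which encodes the urate-forming xanthine dehydrogenase, 12.7 against 28.2 CPM. The organic anion transporter gene Slc22a7, which belongs to late proximal segments, had 226 counts in db/m and 1 in fructose-fed db/db (log2 ratio -8.24, 95% interval -13.55 to -5.75). Cells with more late-segment than early-segment marker counts numbered 224 of the db/m and 30 of the fructose-fed db/db proximal tubule cells. The late-segment markers include Slc22a7, Slc7a13 and Acy3, whose own levels were low in fructose-fed db/db. The count therefore does not measure segments alone. How much of a ratio came from a difference in segments was examined only by restricting the cells. Among the 6444 and 10273 cells with more early-segment counts, all 51 of the described proximal tubule genes past 1.5-fold kept that size and direction. These were nearly all of the 6766 and 10325 proximal tubule cells, so this restriction could hardly change a ratio. It does not show what part segments had in the ratios.

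Genes for folding proteins in the endoplasmic reticulum were low in proximal tubule cells. The chaperone gene Hspa5 stood at 626 CPM in db/m and 239.6 CPM in fructose-fed db/db (log2 ratio -1.38, 95% interval -1.44 to -1.33), the calreticulin gene Calr at 257 against 102 CPM and the stress-secreted factor gene Manf at 96.8 against 38.8 CPM. Of 19 measured members 12 were lower and 0 higher, with a median of -0.74 against the class median of 0.27, and 15 were lower with size factors. Ribosomal protein genes were lower in 49 of 81, genes of the mitochondrial genome in 9 of 13 and nuclear oxidative phosphorylation genes in 6 of 23, with 0 higher in each. With size factors those counts were 79, 12 and 15. The share of all measured genes in these cells that was lower was 6.28%. The median mitochondrial share over all cells was also lower in the fructose-fed db/db library (10.9% against 15.5%), and its part in these counts was not tested.

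In the glucocorticoid response list 8 of 17 were higher and 1 was lower (median 0.38), or 6 and 1 with size factors. Fkbp5, a glucocorticoid-induced co-chaperone gene (chr17:28399094-28517527), stood at 112 CPM in db/m and 343 CPM in fructose-fed db/db (log2 ratio 1.62, 95% interval 1.53 to 1.70), with 119.9 CPM in db/db on the control diet. Zbtb16 stood at 32.4 against 142 CPM. Igfbp1, a single gene repressed by insulin, stood at 1.28 against 21.2 CPM (log2 ratio 4.06, 95% interval 3.34 to 4.88). Immediate-early genes, which also respond to tissue digestion, were higher in 10 of 24 and lower in 4, or 8 and 5 with size factors, with Egr1 at 96.0 against 257 CPM. For both lists, the shares of all measured genes in these cells were 20.6% higher and 6.28% lower. Genes of albumin uptake from the filtrate, such as the receptor genes Lrp2 and Cubn, passed 1.5-fold in 0 of 11.

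Clock genes differed between the libraries in every class. The core clock is a loop in which the Arntl protein, with Clock or Npas2, binds E-box sequences and raises Per, Cry, Nr1d1, Nr1d2, Ciart and the output factors Dbp and Tef. Nr1d1 and Nr1d2 proteins repress Arntl, Npas2 and Cry1, and Dbp, Tef and Hlf proteins bind D-box sequences, as in Per3. The promoter windows of 4 clock genes with large ratios in proximal tubule cells, each with at least 1 motif, are printed to show where these motifs fall. They run from 250 bases before to 50 after the RefSeq start (GRCm38.p6), with E-boxes (CACGTG) or D-boxes (TTATGTAA or its reverse complement TTACATAA) in capitals, both strands searched.
Ciart (chr3:95882179-95882478, minus strand): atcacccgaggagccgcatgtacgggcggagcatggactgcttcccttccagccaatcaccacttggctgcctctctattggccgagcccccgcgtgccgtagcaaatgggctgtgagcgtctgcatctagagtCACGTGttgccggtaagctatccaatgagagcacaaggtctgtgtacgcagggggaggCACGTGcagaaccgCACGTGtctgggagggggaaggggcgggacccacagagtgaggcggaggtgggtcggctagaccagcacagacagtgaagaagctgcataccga
Per3 (chr4:151044616-151044915, minus strand): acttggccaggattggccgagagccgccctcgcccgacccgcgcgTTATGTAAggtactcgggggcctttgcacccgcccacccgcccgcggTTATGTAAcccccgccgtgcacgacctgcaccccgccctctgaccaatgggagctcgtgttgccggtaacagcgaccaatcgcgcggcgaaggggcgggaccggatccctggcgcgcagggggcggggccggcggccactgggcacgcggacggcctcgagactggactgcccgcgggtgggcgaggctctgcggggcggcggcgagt
Tef (chr15:81802423-81802722, plus strand): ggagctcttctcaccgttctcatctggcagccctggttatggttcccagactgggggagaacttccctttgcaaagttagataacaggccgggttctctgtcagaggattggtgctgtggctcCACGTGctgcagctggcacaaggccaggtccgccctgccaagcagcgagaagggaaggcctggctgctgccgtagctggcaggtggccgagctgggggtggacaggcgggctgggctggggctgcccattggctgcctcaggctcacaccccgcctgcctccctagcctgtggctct
Cry1 (chr10:85185005-85185304, minus strand): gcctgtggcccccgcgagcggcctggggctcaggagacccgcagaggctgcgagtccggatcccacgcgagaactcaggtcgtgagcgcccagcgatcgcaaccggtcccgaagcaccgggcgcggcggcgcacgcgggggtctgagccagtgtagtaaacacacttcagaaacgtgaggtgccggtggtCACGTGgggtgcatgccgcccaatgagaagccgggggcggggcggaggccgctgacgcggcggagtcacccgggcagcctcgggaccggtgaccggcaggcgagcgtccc
Of 23 clock and output genes searched, 19 had an entry, 5 of them held an E-box and 1 held a D-box. Of all 27025 windows, 7.24% held an E-box and 0.955% a D-box. The Ciart window held 3 E-boxes, the Tef and Cry1 windows 1 each and the Per3 window 2 D-boxes. The windows of Nr1d1, Nr1d2 and Arntl held 0 of either motif. Nr1d1 and Nr1d2 had larger ratios in proximal tubule cells than Tef or Cry1. A match is a description of these letters and not a measured site.

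The nuclear receptor genes Nr1d1 (chr11:98767932-98775333) and Nr1d2 (chr14:18204054-18239127) were at least 1.5-fold higher in fructose-fed db/db in 8 of 8 classes. Nr1d1 in proximal tubule cells stood at 10.8 CPM in db/m and 102 CPM in fructose-fed db/db (log2 ratio 3.23, 95% interval 2.98 to 3.50), with 18.2 CPM in db/db on the control diet. Its log2 ratios over the 8 classes ran from 1.94 to 3.72, and those of Nr1d2 from 1.90 to 3.60. Dbp (proximal tubule 3.19 against 31.1 CPM) and Per3 (24.5 against 87.7 CPM, with the pair of D-boxes above) were also higher in 8 of 8 classes, over ranges of 1.26 to 3.43 and 1.13 to 3.82. Tef, with 1 E-box above, was higher in 7 of 8 (187 against 609 CPM in proximal tubule cells). Ciart, with 3 E-boxes, was measured only in proximal tubule cells, at 1.12 CPM in db/m and 18 CPM in fructose-fed db/db (log2 ratio 4.01, 95% interval 3.24 to 4.90).

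Several other core clock genes were lower. Cry1 was lower in 6 of 7, over -2.60 to -0.52 (17.9 against 3.51 CPM), and Arntl in 6 of 8, over -1.97 to -0.26 (40.1 against 18.7 CPM). Npas2 was lower in 3 of 6 (41.0 against 14.1 CPM in proximal tubule cells), and Per2 in 4 of 8. Per1 was higher in 5 of 8 and lower in 0, over 0.08 to 0.93, and Cry2 was higher in 3 of 8 and lower in 0, over -0.46 to 1.41. Clock passed 1.5-fold in 0 of 8. With size factors Nr1d1, Nr1d2, Per3 and Dbp were again higher in 8 of 8, and Cry1 lower in 7 of 7, while Per1 was higher in 3 and lower in 0 and Cry2 higher in 2 and lower in 1. In db/db on the control diet, proximal tubule levels were 44.4 CPM for Arntl, 9.32 CPM for Cry1, 1.36 CPM for Dbp and 17.4 CPM for Per3. Clock genes vary over the day, so the hour of collection, which is not given in the sources used here, cannot be told apart from genotype and diet for these genes. Within the core clock list the proximal tubule count was 5 higher and 5 lower of 15 measured, and within the 8 output factors 4 higher and 1 lower. With size factors these counts were 5 and 5, and 2 and 1. Among all measured genes in proximal tubule cells, 20.6% were higher and 6.28% lower by CPM.

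**Figure D2:**
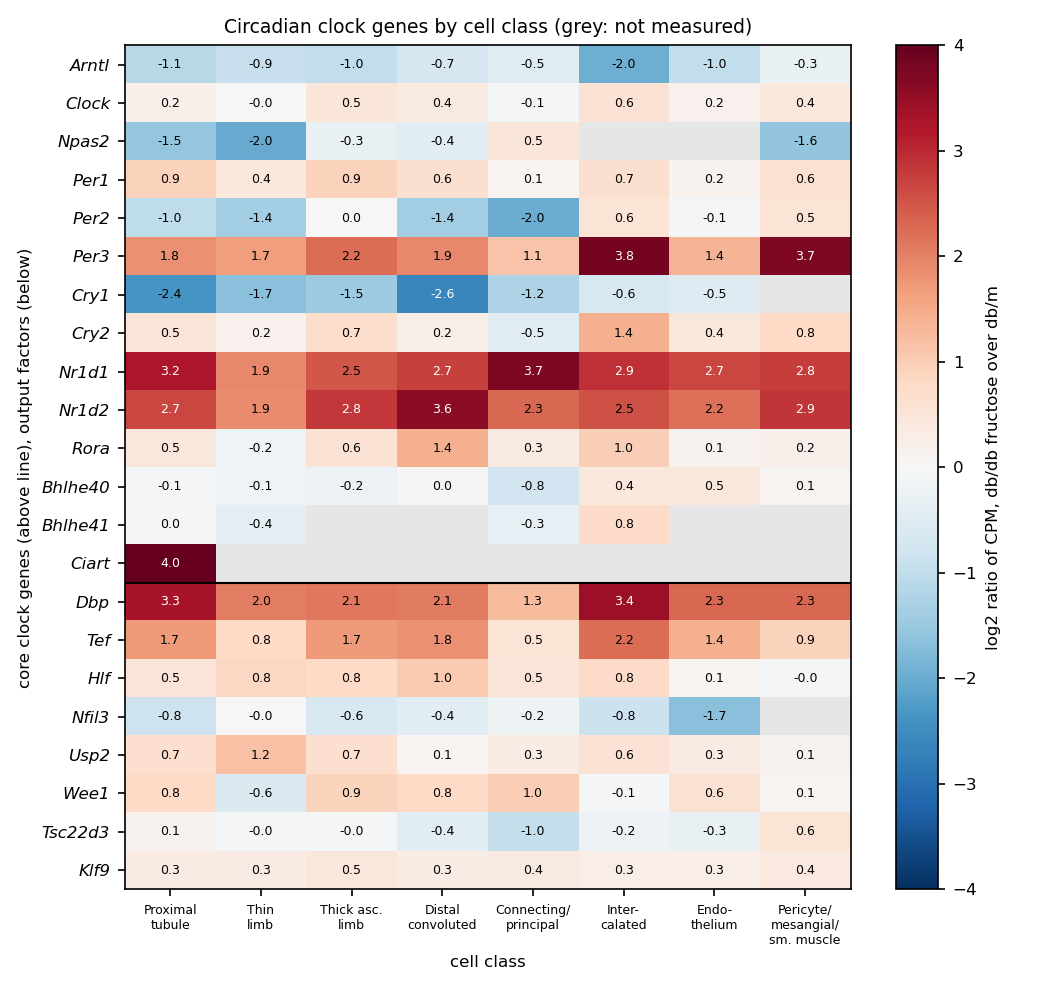
Log2 ratio of CPM, fructose-fed db/db over db/m, for core clock genes (above the line) and clock output factors (below) in 8 cell classes, with grey where a gene was not measured. Nr1d1, Nr1d2, Per3 and Dbp are at 1.13 or more in every class, and Arntl is below 0 in every class.

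In the thick ascending limb, which reabsorbs salt without water, genes that mark tubular injury were high. Lcn2, a secreted iron-carrier binding protein gene (chr2:32384633-32388252), had 10 counts in db/m and 632 in fructose-fed db/db, or 3.17 against 106 CPM (log2 ratio 5.06, 95% interval 4.17 to 6.13). The secreted chaperone gene Clu (chr14:65968483-65981547) stood at 66.6 CPM in db/m and 836 CPM in fructose-fed db/db (log2 ratio 3.65, 95% interval 3.45 to 3.85), and the osteopontin gene Spp1 at 1463 against 4610.1 CPM (log2 ratio 1.66, 95% interval 1.61 to 1.70). In db/db on the control diet Lcn2 read 23.7 CPM, Clu 327 CPM and Spp1 2322 CPM. Of 17 measured injury genes, 12 were higher by 1.5-fold and 0 lower, with a median of 1.38 against a class median of 0.29. In the same cells, 20.9% of the 9314 measured genes stood 1.5-fold or more higher in fructose-fed db/db and 2.43% that much lower. Under size factors the shares were 7.56% and 7.07%, and 11 of the 17 injury genes were higher.

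Most of the Lcn2 and Clu counts of thick ascending limb cells in fructose-fed db/db lay in 1 cluster of 201 cells. After thinning to 500 UMIs, Lcn2 was detected in 0.293% of db/m and 1.30% of fructose-fed db/db cells. Clu was detected in 2.71% of db/m and 10.6% of fructose-fed db/db cells, against 2.04% and 4.46% of lymphocytes. A cluster with high Nos1 and Pappa2, genes of macula densa cells, held 71 cells in db/m and 201 in fructose-fed db/db. Of the counts of this class, it carried 4065 of 4994 for Clu and 557 of 632 for Lcn2 in fructose-fed db/db. In db/m it carried 49 of 210 and 1 of 10. Within it Clu stood at 263 and 4494 CPM, and Pappa2, which encodes a protease that frees insulin-like growth factors (chr1:158711727-158980490), at 457 and 1058 CPM, while Nos1 read 602 and 703 CPM. One cell held 887 of the Clu counts. Spp1 was spread more widely, with at least 1 count in 920 thick ascending limb cells of db/m and 2374 of fructose-fed db/db. With this cluster left out, all 16 of the described thick ascending limb genes past 1.5-fold stayed past it in the same direction.

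Beyond injury genes, the chemokine gene Cxcl10 stood at 5.39 against 30.5 CPM and the kinase gene Wnk1, a regulator of salt transport, at 545 against 1254 CPM. Bsnd, which encodes the chloride channel subunit barttin, stood at 99.6 against 43.8 CPM (log2 ratio -1.18, 95% interval -1.43 to -0.94). The main genes that define the segment did not pass 1.5-fold. Slc12a1, the sodium-potassium-chloride cotransporter gene, had a log2 ratio of -0.02 (-0.04 to 0.01), and Umod, the uromodulin gene, -0.39 (-0.41 to -0.36). The 5 highest ratios by the naming rule were those of Lcn2, Clu, Cyp24a1 (15.2 against 130 CPM), Nr1d2 (10.5 against 74.8 CPM) and Pappa2, and the 5 lowest those of Slco1a1, Kap, Cndp2, Acy3 and Slc7a13. Cyp24a1 and these last 5 genes were highest in proximal tubule cells. Proximal tubule markers stood in thick ascending limb cells at 41.0% of their library level in db/m and 42.5% in fructose-fed db/db.

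Connecting tubule and principal cells, which carry out the regulated steps of calcium, sodium and water reabsorption, had high levels of calcium-handling genes in fructose-fed db/db. S100g, which encodes the vitamin D-dependent calcium buffer calbindin-D9k (chrX:162961992-162964599), stood at 2277 CPM in db/m and 12357 CPM in fructose-fed db/db (log2 ratio 2.44, 95% interval 2.40 to 2.48). The apical calcium channel gene Trpv5 (chr6:41652173-41680769) stood at 32.7 against 222 CPM (log2 ratio 2.76, 95% interval 2.46 to 3.08), the calbindin-D28k gene Calb1 at 763 against 2041 CPM (log2 ratio 1.42, 95% interval 1.35 to 1.49), and the sodium-calcium exchanger gene Slc8a1 at 251 against 985 CPM (log2 ratio 1.97, 95% interval 1.86 to 2.09). The vitamin D receptor gene Vdr (75.0 against 171 CPM) and Kl, which encodes klotho, the FGF23 co-receptor (507 against 1081 CPM), were higher too. Of 18 measured genes of divalent cation transport and vitamin D, 16 were higher and 0 lower, with a median of 1.27 against a class median of 0.13. In the same cells, 12.9% of the 9238 measured genes stood 1.5-fold or more higher in fructose-fed db/db and 3.56% that much lower. Size factors gave 8.07% and 6.50% for these shares, and 14 of the 18 were higher.

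In db/db on the control diet, S100g read 4337 CPM, Trpv5 60.5 CPM, Calb1 1269 CPM and Slc8a1 843 CPM, each between the other libraries. After thinning, S100g was detected in 23.7% of db/m and 44.2% of fructose-fed db/db cells, and in 2.04% and 22.3% of lymphocytes. Trpv5 was detected in 1.48% of db/m and 10.8% of fructose-fed db/db cells, and in 0 of 98 lymphocytes in db/m (exact upper bound 3.69%) and 0.893% in fructose-fed db/db. Of 26 measured genes of distal sodium transport and the aldosterone response, 8 were higher and 2 lower (median 0.18), or 6 and 3 with size factors. Of 13 measured water handling genes, 4 were higher and 1 lower (median 0.18), and again 4 and 1 with size factors. The median of all measured genes here was 0.13. The water channel genes Aqp2 and Aqp3 had log2 ratios of -0.17 (-0.19 to -0.15) and -0.12 (-0.16 to -0.07), and the vasopressin receptor gene Avpr2 -0.04 (-0.14 to 0.07). Among the subunits of the epithelial sodium channel, Scnn1a stood at 673 against 342 CPM (log2 ratio -0.98, 95% interval -1.08 to -0.87), while Scnn1b had a ratio of -0.26 and Scnn1g of -0.01.

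The 5 highest ratios in this class were those of Nr1d1 (8.26 against 109 CPM), Trpv5, Clu (265 against 1558 CPM), S100g and the secretory chaperone gene Scg5 (27.8 against 115 CPM). Clu was detected after thinning in 8.61% of db/m and 28.8% of fructose-fed db/db cells, and in 2.04% and 4.46% of lymphocytes. Lcn2 stood at 49.6 against 142 CPM, and 7 of 17 measured injury genes were higher with 0 lower, or 7 and 1 with size factors. The 5 lowest ratios were those of Kap, Ugt2b38, Per2 (67.8 against 17.1 CPM), Abhd3 (129.9 against 36.0 CPM) and Selenop, of which Kap, Ugt2b38 and Selenop were highest in proximal tubule cells.

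Distal convoluted tubule cells, the site of thiazide-sensitive salt transport, shared part of the calcium pattern. Calb1 stood at 716 CPM in db/m and 2272 CPM in fructose-fed db/db (log2 ratio 1.67, 95% interval 1.58 to 1.76), Slc8a1 at 408 against 1332 CPM (log2 ratio 1.71, 95% interval 1.59 to 1.83) and S100g at 539 against 2982 CPM, the last at 24.1% of its level in connecting tubule and principal cells. Pvalb, the parvalbumin gene of the early part of the segment, was low at 1311 against 595 CPM (log2 ratio -1.14, 95% interval -1.23 to -1.05). The cluster of this class with Pvalb as its top gene held 210 of 743 cells in db/m and 286 of 1525 in fructose-fed db/db. Another cluster, left unnamed and outside every class, scored highest for this class and also had Pvalb as its top gene. It held 45 and 481 cells. The part of this makeup in the values of the class was not tested. The magnesium channel gene Trpm6 had a log2 ratio of 0.36 (0.21 to 0.51), and the sodium-chloride cotransporter gene Slc12a3 -0.36 (-0.38 to -0.34). In the divalent cation and vitamin D list 7 of 19 were higher and 1 lower (median 0.33). In these cells, 25% of the 9388 measured genes stood 1.5-fold or more higher in fructose-fed db/db and 8.17% that much lower. Scaled by size factors, 13.8% stood higher and 16.7% lower, and the list count was again 7 higher and 1 lower. Nuclear oxidative phosphorylation genes were lower in 16 of 23 (20 with size factors), with a median of -0.68, and this count was 1 when each library was clustered on its own and 2 with cells thinned to 500 UMIs.

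The highest ratios in distal convoluted tubule cells were those of Cyp27b1, Cyp24a1, Nr1d2 (6.49 against 78.8 CPM), the glutamate receptor gene Gria3 (9.74 against 68.3 CPM) and Zbtb16 (9.74 against 67.0 CPM), and the lowest those of Slco1a1, Acsm3, Kap, Cndp2 and Cd36. Both vitamin D genes and the 5 low genes are among the proximal tubule genes above. The level of proximal tubule markers in distal convoluted tubule cells differed between the libraries (47.4% and 68.3%). With an estimate of free RNA subtracted, 2 of 156 gene and class values over all classes reversed. They were Pclo in pericyte, mesangial and smooth muscle cells and Kap in thin limb cells. What part free RNA had in the ratios here was not tested.

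**Figure D3:**
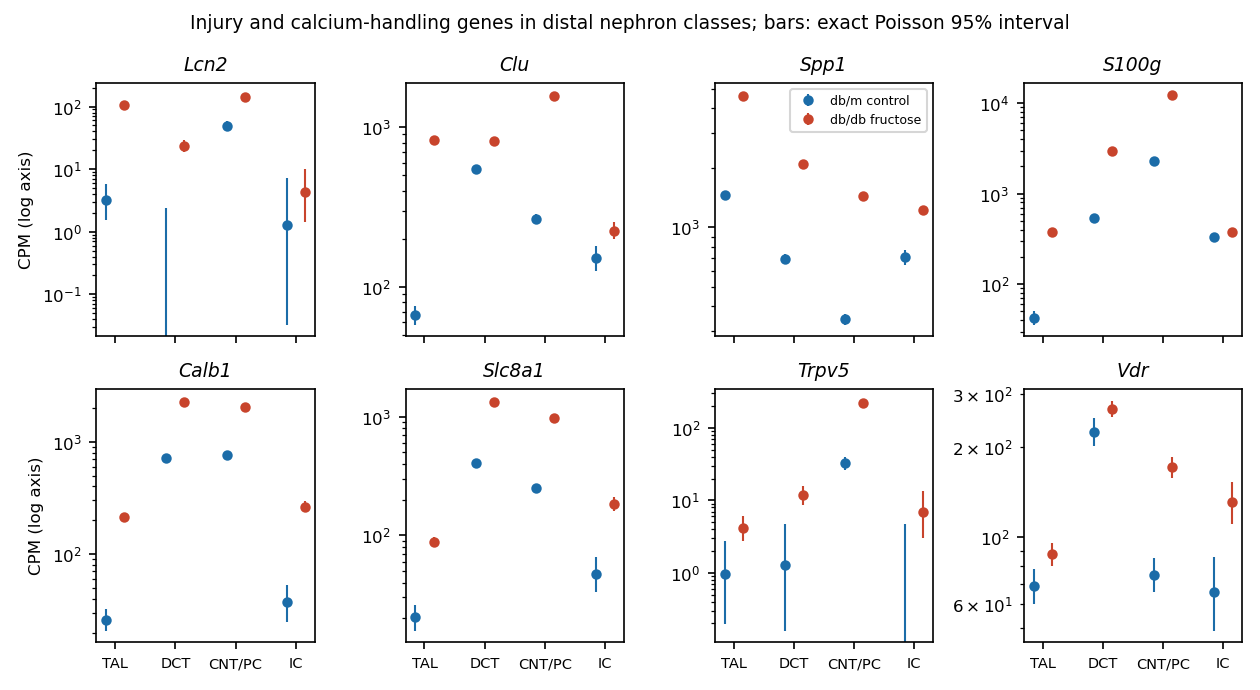
Levels in CPM on log axes of 3 injury genes and 5 calcium-handling genes in thick ascending limb (TAL), distal convoluted tubule (DCT), connecting tubule and principal (CNT/PC) and intercalated (IC) cells of both libraries, with exact Poisson 95% intervals. Where a count was 0 only the upper part of the interval is drawn. S100g in connecting tubule and principal cells reads 2277 CPM in db/m and 12357 CPM in fructose-fed db/db, and Lcn2 in thick ascending limb cells reads 3.17 and 105.8 CPM.

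In intercalated cells, which secrete acid or bicarbonate, energy genes and parts of the proton pump were low in fructose-fed db/db. Atp6v1g3, a kidney subunit of the vacuolar proton pump, stood at 4137 CPM in db/m and 1561 CPM in fructose-fed db/db (log2 ratio -1.41, 95% interval -1.49 to -1.32), and Slc4a1, the anion exchanger gene of the acid-secreting type A cell, at 708 against 322 CPM (log2 ratio -1.14, 95% interval -1.33 to -0.95). Slc26a4, which encodes pendrin, the anion exchanger of the bicarbonate-secreting type (chr12:31519827-31559969), was higher at 480 against 794 CPM (log2 ratio 0.73, 95% interval 0.55 to 0.90). Nuclear oxidative phosphorylation genes were lower in 18 of 23 with 0 higher (median -0.93), ribosomal protein genes in 80 of 81, and proton pump and acid-base genes in 10 of 28 with 1 higher. In these cells, 33.9% of the 9134 measured genes stood 1.5-fold or more higher in fructose-fed db/db and 14.4% that much lower. By size factors the shares came to 20.7% and 23.2%, and 21, 80 and 15 genes of these 3 lists were lower. The cells differed in depth, with medians of 2736 UMIs in db/m and 1566 in fructose-fed db/db. Proximal tubule markers stood in them at 31.7% and 53.6% of their library level. The oxidative phosphorylation count stayed within 1.5 times of 18 with cells thinned to 500 UMIs and with an estimate of free RNA subtracted. The ribosomal protein and proton pump counts were not recomputed in these ways. Both depth and proximal tubule markers move with these counts, and their part in them was not tested.

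The highest ratios in intercalated cells were those of Cyp24a1, Per3 (6.42 against 90.8 CPM), Prodh2, Gria3 and Folh1, and the lowest those of Slco1a1, Kap, Sh3bgrl3, Smco4 and Cbr2, a carbonyl reductase gene. Cbr2 had 151 counts in db/m, 30 of them in 1 cell, and 21 in fructose-fed db/db, or 194 against 18.2 CPM. The divalent cation and vitamin D list was higher in 15 of 17 here as well (14 with size factors), beside 33.9% of all measured genes by CPM. Levels were far below those of connecting tubule and principal cells, as the plot of injury and calcium-handling genes shows. S100g was also detected in a larger share of lymphocytes in fructose-fed db/db, as given above. The part of RNA from other classes in this count was not tested. Within the cluster that held most Slc26a4, that gene read 1807 CPM in db/m and 2135 CPM in fructose-fed db/db.

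Endothelial cells of fructose-fed db/db had high levels of Lrg1, which encodes a secreted modulator of vessel growth (chr17:56119678-56122001). It had 46 counts in db/m and 912 in fructose-fed db/db, or 29.5 against 256 CPM (log2 ratio 3.12, 95% interval 2.69 to 3.58), and 57.7 CPM in db/db on the control diet. After thinning it was detected in 0.712% of db/m and 9.34% of fructose-fed db/db cells, and in 0 of 98 and 0 of 112 lymphocytes, with exact upper bounds of 3.69% and 3.24%. Gpihbp1, the capillary anchor of lipoprotein lipase (chr15:75596628-75599481), stood at 175 CPM in db/m and 642 CPM in fructose-fed db/db (log2 ratio 1.87, 95% interval 1.69 to 2.06), while the fatty acid translocase gene Cd36 was low at 69.9 against 19.1 CPM (log2 ratio -1.87, 95% interval -2.33 to -1.42). Cd36 was highest in proximal tubule cells, where it was low too, and its level in endothelial cells was 62.7% of that one. Proximal tubule markers stood in endothelial cells at 35.9% and 31.6% of their library level, and the Cd36 ratio was -1.76 with an estimate of free RNA subtracted. The fatty acid binding protein gene Fabp4 had a ratio of 0.69 (0.58 to 0.80). Of 10 measured genes of capillary lipid uptake, 3 were higher and 1 lower. For comparison, 12.7% of the 9833 measured genes in this class stood 1.5-fold or more higher in fructose-fed db/db and 4.21% that much lower. Those shares became 8.98% and 6.38% with size factors, and 1 lipid uptake gene was then higher and 1 lower.

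Among genes of endothelial activation and growth 4 of 20 were higher and 0 lower under both scalings, and these were Lrg1, the adhesion molecule gene Sele (5.77 against 23.6 CPM), the diaphragm protein gene Plvap (225 against 509 CPM) and the endothelin gene Edn1. The makeup of the endothelial class differed between the libraries. A cluster with Plvap and Fabp4 among its top genes held 197 of 562 cells in db/m and 588 of 1253 in fructose-fed db/db. A cluster with Ehd3 among its top genes held 265 and 408. The part of this makeup in the ratios of Plvap, Fabp4 and Gpihbp1 was not tested. Kdr, the main VEGF receptor gene, had a ratio of 0.03 (-0.05 to 0.11). Matrix genes were higher in 7 of 20 with 0 lower (6 and 0 with size factors), with the fibronectin gene Fn1 at 9.62 against 26.9 CPM. In the interferon list 3 of 24 were higher and 1 lower under both scalings. The 5 highest ratios were those of Lrg1, Nr1d1 (8.98 against 57.5 CPM), Fkbp5 (41.1 against 195 CPM), Nr1d2 (11.5 against 53.0 CPM) and Gpihbp1. The 5 lowest were those of Ppbp, Slco1a1, Kap, Cyp2e1 and the matrix-binding protein gene Olfml2b (78.3 against 16.3 CPM). The 106 Ppbp counts of the db/m library came from 1 cell, and Ppbp is a platelet gene.

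Pericyte, mesangial and smooth muscle cells, the contractile and supporting cells of glomeruli and vessels, had high levels of interferon-induced genes. The antiviral membrane protein gene Bst2 stood at 25.9 CPM in db/m and 91.8 CPM in fructose-fed db/db (log2 ratio 1.82, 95% interval 0.73 to 3.17) and the apoptosis factor gene Xaf1 at 11.1 against 46.3 CPM (log2 ratio 2.06, 95% interval 0.44 to 4.38). Of 15 measured interferon genes 13 were higher and 0 lower, with a median of 1.18 against a class median of 0.10, and 8 of 10 genes of MHC class I presentation were higher with 0 lower. In these cells, 23.2% of the 8819 measured genes stood 1.5-fold or more higher in fructose-fed db/db and 12.6% that much lower. The same shares under size factors were 22.4% and 13.2%, with 13 interferon and 7 MHC class I genes higher. The interferon count was 4 when cells were thinned to 500 UMIs. The basement membrane collagen genes Col4a1 and Col4a2 had ratios of 0.91 (0.70 to 1.12) and 1.32 (1.05 to 1.61), and Tgfb1 1.46 (0.67 to 2.36).

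The makeup of this class differed between the libraries. A mesangial-like cluster held 109 of its cells in db/m and 569 in fructose-fed db/db, and a cluster of smooth muscle-like and renin-expressing cells 25 and 28. The smooth muscle actin gene Acta2 had a ratio of -1.15 over the class and 0.94 within the mesangial-like cluster; its direction differed between the class and this cluster. The highest ratios were those of Cyp1b1 (1 and 147 counts, log2 ratio 5.09, 95% interval 2.59 to 10.40), the renin gene Ren1, Pclo, the lymphatic growth factor gene Vegfd (2 and 124 counts, log2 ratio 3.84, 95% interval 1.96 to 6.91) and Cyp24a1. Ren1 (chr1:133350510-133360325) had 6 counts in db/m and 799 in fructose-fed db/db. Of these 799 counts, 726 were in 1 cell, and 18 cells held at least 1, against 2 cells in db/m. The lowest ratios were those of Slco1a1, Kap, Slc7a13, Slc38a11 and Cndp2. Proximal tubule markers stood in these cells at 67.3% and 50.3% of their library level.

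Thin limb cells gave values that depended on how the cells were clustered. Of the 5 highest ratios, those of Sprr1a and Sbsn, which encode epithelial barrier proteins, each came from 1 cell. Sprr1a (chr3:92483952-92485895) had 5 counts in db/m and 297 in fructose-fed db/db, of which 296 were in 1 cell, and Sbsn had 3 and 165, of which 152 were in 1 cell. Hacl1, Gc and Slc2a5 (14.8 against 86.3 CPM) completed the 5, and Gc was lower, not higher, under 5 of the alternatives. The Wnt inhibitor gene Sfrp5 was low at 105 against 15.2 CPM (log2 ratio -2.78, 95% interval -3.50 to -2.13), as was Tuft1 at 154 against 24.8 CPM (log2 ratio -2.63, 95% interval -3.18 to -2.12), beside Ugt2b38, Cyp4b1 and Kap. Cholesterol synthesis and uptake genes were lower in 10 of 22 with 0 higher (median -0.49), a count of 10 again with size factors and of 1 after thinning. In these cells, 8.68% of the 9477 measured genes stood 1.5-fold or more higher in fructose-fed db/db and 8.81% that much lower. Size factors changed these shares to 8.16% and 9.41%.

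**Figure D4:**
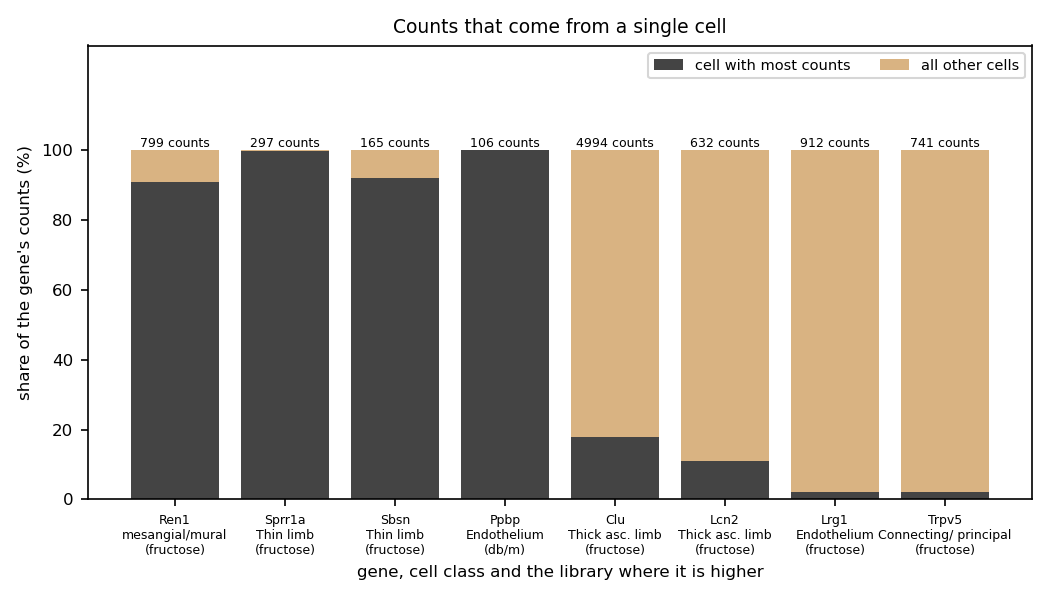
Share, in percent, of a gene's counts held by the single cell with the most counts, in the library and class where the gene is higher, for 8 genes described above, with the total number of counts over each bar. Ren1, Sprr1a, Sbsn and Ppbp rest almost wholly on 1 cell, whereas Lrg1 and Trpv5 are spread over many cells.

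Different lists stood furthest from the class median in different classes. Relative to the median of its class, the injury list stood highest in thick ascending limb cells (1.09 on the log2 scale), the interferon list in pericyte, mesangial and smooth muscle cells (1.08), and the divalent cation and vitamin D list in intercalated (1.16) and connecting tubule and principal cells (1.13). The folding list was below the class median in 8 of 8 classes and furthest below it in proximal tubule cells. Oxidative phosphorylation and ribosomal protein genes were furthest below it in intercalated cells (-1.21 and -1.25). No difference between classes was tested, nor was the part of RNA from other classes in these medians.

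**Figure D5:**
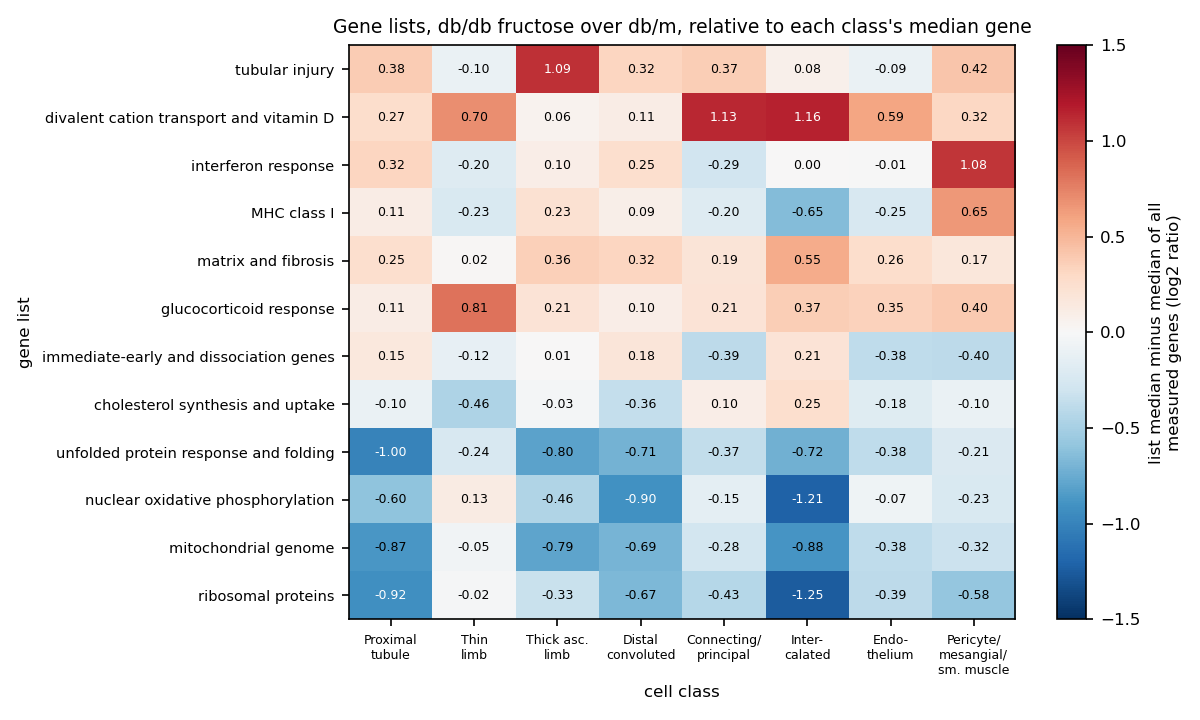
Median log2 ratio, fructose-fed db/db over db/m, of the measured members of 12 gene lists, minus the median of all measured genes of the class, in 8 cell classes. The injury list reads 1.09 in the thick ascending limb, and the protein folding list is below 0 in every class.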

How the data were processed

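Whole kidney was digested with enzymes, cleared of dead cells and loaded on a 10x Genomics platform, per the labels' protocols. The authors deposited raw UMI counts for each gene in each barcode, and the submitters' processing notes name Cell Ranger 6.0.0 and mm10. The chemistry and whether introns were counted are not given in the sources used here. Barcodes of all 3 libraries that reached 200 genes and did not exceed 50% mitochondrial UMIs were clustered with scanpy 1.11.5 (2000 variable genes, 30 components, Leiden resolution 1, leidenalg 0.10.2). Clusters were named from marker genes by a scoring rule revised after the clusters were seen, and 1 of 28 clusters stayed unnamed (45 and 481 cells of the pair compared). No doublets were removed in the main values, and an alternative removed the highest Scrublet scores. Erythroid cells were left out, and classes of fewer than 100 cells in either library are given as values only.

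Raw counts were summed per class and library and divided by the class total. Level intervals are exact Poisson, ratio intervals exact binomial and shares Clopper-Pearson, at 95%, tested on simulated data. They cover counting error only. With 1 library a group no test was run. Sums of 0 took a floor of 3 counts. Named genes were the 10 highest and 10 lowest ratios in proximal tubule cells and 5 in each other class. They needed at least 50 CPM in the higher library, 30 counts over both and 25% of the level in the class where the gene is highest, with mitochondrial, ribosomal and unnamed gene models left out. List members with extreme ratios and the best-known members were added. The members, lists and rules were chosen with earlier results of these data known. Some members are counted in their lists but not reported singly here. Gene positions are from GENCODE M21 and promoters from RefSeq.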

Additional observations from a re-analysis of the deposited data

Results flagged for a closer look

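Mgp, which encodes matrix Gla protein, an inhibitor of calcification, differed in opposite directions in 2 classes. In endothelial cells it stood at 166 CPM in db/m and 601 CPM in fructose-fed db/db, a log2 ratio of 1.86 (95% interval 1.67 to 2.05). In pericyte, mesangial and smooth muscle cells it stood at 170.4 and 41.2 CPM, a log2 ratio of -2.05 (-2.66 to -1.43). In that class 33 of the 46 db/m counts came from 1 cell, and without the cell with most counts in each library the ratio was -0.35. The difference between the classes was not tested.

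Sox4, which encodes a transcription factor of developing and injured epithelium, was higher in connecting tubule and principal cells (44.6 and 95.7 CPM, log2 ratio 1.10, 0.81 to 1.40) and lower in thin limb cells (310.4 and 150.5 CPM, log2 ratio -1.04, -1.28 to -0.81). The difference between the classes was not tested, and the thin limb value was 0.043 at a finer clustering.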

How the results depend on the processing

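No paired analysis was possible because each group was 1 library. Counts of list members past 1.5-fold were recomputed under each alternative. The 11 low male-biased genes of proximal tubule cells and the 7 high divalent cation genes of distal convoluted tubule cells stayed within 1.5 times of those counts under every alternative. Counting only members past 2-fold gave 5 low folding genes in proximal tubule cells in place of 12, 2 gluconeogenesis genes in place of 6, 3 fructose genes in place of 5, and 7 low oxidative phosphorylation genes in intercalated cells in place of 18. The fructose count was also 3 with size factors and with a minimum of 50 CPM, and 2 in the late-segment cells. Requiring 50 CPM gave 5 injury genes in thick ascending limb cells in place of 12, and 7 interferon genes in pericyte, mesangial and smooth muscle cells in place of 13. Thinning to 500 UMIs gave 4 of those interferon genes, and 10 divalent cation genes in connecting tubule and principal cells in place of 16. The 16 low oxidative phosphorylation genes of distal convoluted tubule cells became 10 with a minimum of 500 genes a cell, 2 with 2 libraries clustered, 1 with each library clustered on its own, 2 after thinning and 1 at 2-fold. The 10 low cholesterol genes of thin limb cells became 2 at 30% mitochondrial UMIs, with 500 genes and with 2 libraries clustered, 3 with Scrublet, at resolution 2, with own clustering and at 2-fold, 4 with 50 CPM and 1 after thinning. The 3 high lipid uptake genes of endothelial cells became 5 at 30% mitochondrial UMIs and 1 with size factors, after thinning, with free RNA subtracted and at 2-fold. The cause was not tested.

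Single genes reversed as follows. Gc in thin limb cells read -1.44 at 30% mitochondrial UMIs, -0.49 with 500 genes, -2.12 at resolution 2, -1.51 with 2 libraries and -0.81 after thinning, and Sox4 there read 0.043 at resolution 2. With free RNA subtracted Pclo in pericyte, mesangial and smooth muscle cells read -0.14 and Kap in thin limb cells 6.49. In the 224 and 30 late-segment proximal tubule cells, Slc5a2 read -1.96, Cry1 2.53 and Npas2 1.41. These further alternatives were chosen after the data were seen. The mesangial-like cluster alone gave 0.11 for Mgp and 0.94 for Acta2, leaving out the Nos1 and Pappa2 cluster reversed 0 of 16 genes, and leaving out the cell with most counts reversed 0 of 158. With size factors 156 of the 159 gene and class values past 1.5-fold stayed past it and 0 reversed, after thinning 149 of 159 did and 1 reversed.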

Other observations

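Classes with fewer than 100 cells in a library are given as values only. Mononuclear phagocytes numbered 87 in db/m and 334 in fructose-fed db/db. Among genes of MHC class II presentation there, H2-Aa stood at 11730.4 and 6441 CPM (log2 ratio -0.86, 95% interval -0.93 to -0.80), H2-Ab1 had a ratio of -1.05, and the invariant chain gene Cd74 one of -0.50, which does not pass 1.5-fold. Spp1, the osteopontin gene, stood at 153 and 602 CPM (1.97, 1.54 to 2.44). The complement genes C1qa, C1qb and C1qc, which mark kidney macrophages, had ratios of -0.18, -0.19 and -0.27. Spp1 counts also stood in lymphocytes at 113 and 833 CPM, and it is abundant in tubule cells.

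Lymphocytes numbered 98 and 112. The T cell chemokine gene Ccl5 stood at 306 and 1506 CPM (2.30, 1.91 to 2.71), Ccl4 at 169.6 and 445 CPM, and Cd74, a B cell gene in this class, at 2497 and 983 CPM. Neutrophils numbered 4 in db/m and 44 in fructose-fed db/db. Podocytes numbered 115 in db/m and 12 in fructose-fed db/db, or 1.02% (0.84 to 1.23) and 0.0621% (0.0321 to 0.108) of cells, and 10 in db/db on the control diet. These shares describe the libraries only.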
